A study of Arabidopsis thaliana with 30 samples.

Results

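The samples described here cover the first 6 h after a leaf is cut from an Arabidopsis thaliana seedling: 2 libraries of blades kept for 6 h on medium (mock 6 h) and 2 libraries of blades taken at 0 h, at detachment (T0), 4 of the 30 libraries of the series. All 4 came from wild type Columbia (Col-0) seedlings raised for 12 d at 22 °C on sucrose-containing MS medium, under days of 16 h light. The first 2 rosette leaves were severed where blade meets petiole, and RNA was taken from the wounded end. The mock 6 h blades had lain on B5 medium without sucrose in 24 h light, so the wound, the loss of supply from the plant, the medium, the light regime and the hour of sampling changed together and cannot be told apart in this comparison. No library has a sequencing depth, because the deposited values are TPM values (transcripts per 1e+06), the share of each gene in the transcripts of its library. All 20654 genes with at least 1 TPM in at least 2 of the 30 libraries were tested. Nothing in the labels says that the replicates came from separate plants, so the p-values measure a spread between libraries that may be technical. That spread was pooled over the pairs of all 15 groups. The T0 pair stood wider than the others, so the p-values and SEs understate the T0 spread.

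A cut leaf is known to make jasmonate within minutes of wounding. The hormone removes JAZ repressors from MYC transcription factors, which then switch on defence and storage protein genes, the genes of jasmonate synthesis itself, and the JAZ and enzyme genes that end the signal. Detached Arabidopsis leaves also build up auxin at the cut end and can form roots there, and their cut vein no longer exports sugar or receives minerals and cytokinin from the root.

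A gene was called when the limma test of mock 6 h against T0 gave an adjusted p under 0.05. It was counted as separated from both T0 libraries when it was also called in the same direction without either T0 library, with a gap of at least 1 on the log2(TPM + 1) scale between the nearest mock 6 h and T0 libraries. At mock 6 h 5479 genes were called higher (26.5% of those tested) and 1285 lower (6.22%). Separated were 812 higher genes (3.93%) and 279 lower genes (1.35%). The 812 higher genes made up 8.56% and 7.75% of all TPM in the mock 6 h libraries, against 1.22% and 1.66% in the T0 libraries. The 279 lower genes made up 0.417% and 0.501% in the mock 6 h libraries, against 2.33% and 2.27% in the T0 libraries. The median log2 fold change was 2.11 for the separated higher genes and -2.17 for the separated lower ones, by which the rule chose them, and 0.21 for all genes tested. At least 8-fold were 186 of the higher and 50 of the lower genes. All 812 and all 279 were called in the same direction after TMM scaling and after quantile normalization, which moved the median of all genes to 0.01 and -0.03. The rule had chosen them by a gap of at least 1, larger than these moves of the median, so this agreement is no separate support. All calls together, in contrast, split more evenly under those scalings, with 3203 higher and 2442 lower genes under TMM and 2731 and 2697 under quantile normalization.

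The T0 libraries stood further apart than any other pair. Across genes, as a description, Pearson's r was 0.974 within the mock 6 h pair, 0.888 within the T0 pair and 0.964 to 0.988 within the others. More than 2-fold apart were 899 genes between the mock 6 h libraries and 4001 between the T0 libraries, of which 2602 were higher and 1399 lower in T0 replicate 2. Of 25 clock genes 0 were called, and 22 differed more than 2-fold between the T0 libraries. The PRR9 gene, of a morning-phased repressor, had 0.38 and 0.05 TPM in the mock 6 h libraries, against 45.9 and 0.21 TPM in the T0 libraries. The FKF1 gene, of an afternoon-phased light receptor, had 22.6 and 9.22 TPM in the mock 6 h libraries, against 0.02 and 19.6 TPM in the T0 libraries. In both genes the mock 6 h libraries stood close to T0 replicate 2 and far from T0 replicate 1. The mock 6 h libraries also differed in clock output: GRP7, which encodes an RNA-binding protein under clock control, had 4412 and 445 TPM there, against 39.3 and 2944 TPM at T0. Being separated from both T0 libraries does not remove genes that cycle with a peak or trough near the 6 h harvest, and the part of the clock in the separated genes was not tested. When T0 was given a weight of its own, set by its spread, 542 of the separated higher and 121 of the separated lower genes were still called. The full separation rule under that weight left 152 higher and 5 lower genes.

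**Figure D1:**
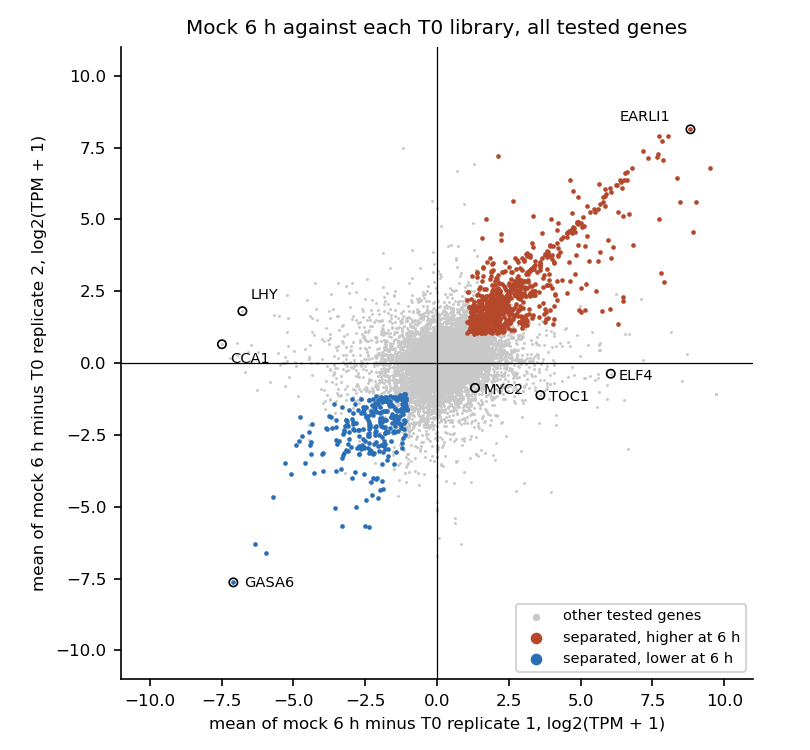
Each point is a tested gene, placed by the mean of the mock 6 h libraries minus T0 replicate 1 (x axis) and minus T0 replicate 2 (y axis), both on the log2(TPM + 1) scale. The 812 separated higher genes lie in the upper right and the 279 separated lower genes in the lower left, while the clock genes CCA1, LHY, ELF4 and TOC1 lie much farther from 0 along the x axis than along the y axis.

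Among separated genes with a symbol, the largest gains on the log2 scale included wall, lipid-transfer and ribonuclease genes that were nearly absent at T0, described here, and genes of the jasmonate, starch, anthocyanin and detoxification lists, described with those lists. In the values below, the replicates of a group are given in the order 1, 2. EXT4, an extensin gene of the cell wall, had 178 and 203 TPM in the mock 6 h libraries, against 0.19 and 0.36 TPM in the T0 libraries (log2 fold change 7.23 ± 0.20 SE, adjusted p = 1.32e-13). All fold changes compare log2(TPM + 1) values, and for low genes they come out smaller than the TPM ratio. LTP2, a lipid transfer protein gene, had 191 and 403 TPM at 6 h, against 0.2 and 1.07 TPM at T0 (log2 fold change 7.46 ± 0.33). MIOX2, an oxygenase gene that opens the ring of myo-inositol, had 129 TPM in each mock 6 h library, against 0.33 and 0.57 TPM at T0 (log2 fold change 6.49 ± 0.34). CSLA01, of a family that makes mannan polysaccharides, had 58.3 and 167 TPM at 6 h, against 0.03 and 0 TPM at T0, and its call was lost with T0 weighted on its own (adjusted p = 0.199). RNS1, a secreted ribonuclease gene, had 105 and 113 TPM at 6 h and was listed at 0 in both T0 libraries (adjusted p = 2.1e-11). In these genes both mock 6 h libraries stood far above both T0 libraries, and the T0 libraries lay close together. EARLI1 and AZI1, adjacent and near-identical lipid-transfer-like genes, had 651 and 313 TPM and 328 and 140 TPM at 6 h, against no more than 0.61 and 0.48 TPM at T0, and the split of reads between them is uncertain.

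The largest gains in TPM were in genes that were abundant at 6 h and already present in both T0 libraries. LOX2 gained most and is described with the jasmonate genes. DHAR1, which recycles ascorbate, had 3027 and 2782 TPM in the mock 6 h libraries, against 193 and 389 TPM in the T0 libraries (log2 fold change 3.40 ± 0.37, adjusted p = 2.62e-06). OEP16-1, a channel gene of the outer plastid envelope, had 2862 and 2613 TPM at 6 h, against 41.1 and 738 TPM at T0 (log2 fold change 3.96 ± 0.86). MT2A, a metallothionein gene, had 2249.8 and 1308 TPM at 6 h, against 300 and 618 TPM at T0 (log2 fold change 1.99 ± 0.44). The glutathione S-transferase genes GSTF9 and GSTF10 also gained, to 2874 and 2135 TPM and to 1728 and 1511 TPM at 6 h, against 321 and 1055 TPM and 95.5 and 404 TPM at T0. NIT1, a nitrilase gene, and GER1, a germin-like gene, were called (log2 fold changes 1.81 ± 0.30 and 1.27 ± 0.25), but their gaps of 0.99 and 0.65 left them outside the separated genes.

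Among separated genes with a symbol, GASA6 and EXPA8 had the largest losses on the log2 scale. ERF105, which the reference lists by locus only, lay close to them and is described with the wound factors. GASA6, a gibberellin-regulated peptide gene, had 0.35 and 0.24 TPM in the mock 6 h libraries, against 175 and 256 TPM in the T0 libraries, and EXPA8, an expansin gene, had 0.16 and 0.07 TPM, against 88.1 and 86.5 TPM. DGR2, of a cell wall protein family, fell to 22.7 and 34.5 TPM at 6 h, against 561 and 410 TPM at T0 (log2 fold change -4.05 ± 0.46, adjusted p = 4.29e-06). BXL1, a beta-xylosidase gene, fell to 0.24 and 0.1 TPM, against 27 and 11.9 TPM. SNG1, which makes sinapoylmalate, a leaf sunscreen, fell to 9.46 and 14.3 TPM, against 198 and 110 TPM. TCH3, a calmodulin-like touch gene, had 37.8 and 26.8 TPM at 6 h, against 160 and 584 TPM at T0 (log2 fold change -3.22 ± 0.52). HSPRO2 had 15.7 and 4.51 TPM at 6 h, against 148 and 129 TPM at T0, and ACA1, an alpha carbonic anhydrase gene, had 6.68 and 25.6 TPM, against 304 and 103 TPM. With T0 weighted on its own the calls of HSPRO2, BXL1, SNG1 and ACA1 were lost (adjusted p = 0.225, 0.0814, 0.0921 and 0.0622). SIS had 1.23 and 1.35 TPM at 6 h, against 24.8 and 15.1 TPM at T0.

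**Figure D2:**
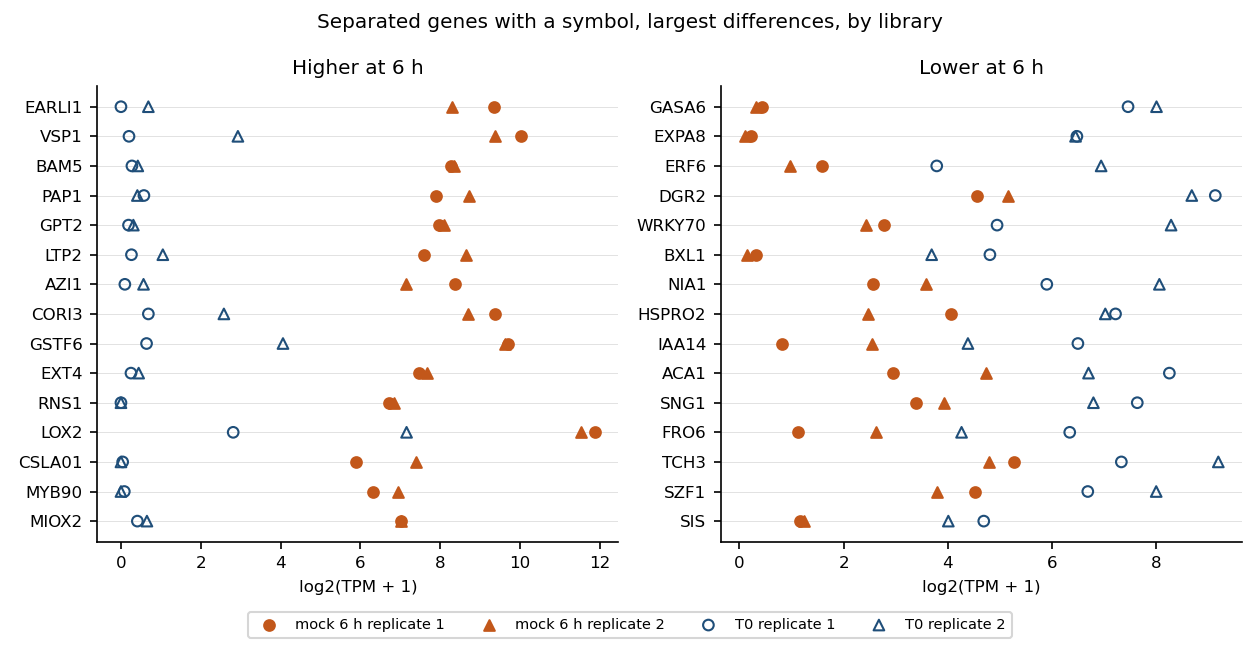
Level of separated genes with a symbol and a mean of at least 10 TPM in the higher group, the 15 with the highest (left) and the 15 with the lowest log2 fold change (right), on the log2(TPM + 1) scale, with filled symbols for mock 6 h and open symbols for T0, circles for replicate 1 and triangles for replicate 2. In LOX2 and GSTF6 the T0 libraries lie far apart, yet both stay below the mock 6 h libraries, and in ERF6 and WRKY70 both stay above them.

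Genes of jasmonate synthesis rose at each plastid step from lipoxygenase to allene oxide cyclase. Of 17 tested synthesis genes 8 were called higher and 0 lower, beside 26.5% and 6.22% of all tested genes. In the list 4 were separated, and its median was 0.84 beside 0.21 for all genes. LOX2, the lipoxygenase of the entry step, had 3757 and 2978 TPM in the mock 6 h libraries, against 6.03 and 142 TPM in the T0 libraries (log2 fold change 6.72 ± 0.84). AOS, the allene oxide synthase, had 999 and 701 TPM at 6 h, against 64.6 and 134 TPM at T0 (log2 fold change 3.16 ± 0.33, adjusted p = 1.79e-06). AOC2, an allene oxide cyclase, had 1361 and 1012 TPM at 6 h, against 3.92 and 167 TPM at T0 (log2 fold change 5.35 ± 0.95). Its neighbour AOC1 had 134 and 73.8 TPM at 6 h, against 2.6 and 10.7 TPM at T0, and near-identical sequence makes the split between the cyclase genes uncertain. The next enzyme, OPR3 of the peroxisome, was called (adjusted p = 0.0304) but not separated, with 147 and 121 TPM at 6 h, against 12.9 and 106 TPM at T0. The other 13-lipoxygenases did not follow LOX2: LOX3 had 24.9 and 17.4 TPM at 6 h, against 4.67 and 30.1 TPM at T0, and LOX4 had 7.68 and 5.27 TPM at 6 h, against 10.5 and 35.8 TPM at T0. T0 replicate 2 was more than 2-fold above replicate 1 in 13 of the 17 synthesis genes. With T0 weighted on its own, 4 remained called.

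The genes that end the jasmonate signal rose as well. Of 20 tested genes of JAZ repressors, repressing factors and hormone inactivation, 14 were called higher and 0 lower. The shares of all tested genes were 26.5% and 6.22%. In this list 8 were separated, and 6 were called with T0 weighted on its own. CYP94B3, which oxidises the active hormone, had 9.45 and 9.39 TPM in the mock 6 h libraries and was listed at 0 in both T0 libraries (adjusted p = 7.58e-08). CYP94B1, of the same family, had 5.49 and 4.36 TPM at 6 h, against 0.29 and 0.27 TPM at T0. ST2A, a sulfotransferase that acts on hydroxyjasmonate, had 38 and 25.5 TPM at 6 h, against 0.11 and 0.08 TPM at T0 (log2 fold change 4.88 ± 0.35, adjusted p = 2.11e-08). JRG21, a jasmonate-regulated oxygenase gene, had 32.5 and 49.3 TPM at 6 h, against 0.16 and 1.42 TPM at T0 (log2 fold change 4.61 ± 0.49). Across these 4 genes the T0 libraries were low in both replicates. The JAZ genes moved less: TIFY7 had 248 and 291 TPM at 6 h, against 67.5 and 61.1 TPM at T0, JAZ3 had 33.1 and 25.2 TPM, against 5.08 and 11.9 TPM, and JAZ10 had 14 and 11.7 TPM, against 3.96 and 3.22 TPM. JAZ1 was not called, with 65.7 and 30.5 TPM at 6 h, against 2.27 and 84.7 TPM at T0.

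Jasmonate output genes rose, and the ethylene-linked defence genes among them were not separated. Of 17 tested outputs 10 were called higher and 0 lower, beside 26.5% and 6.22% of all tested genes. Among the outputs 5 were separated, and 4 were called with T0 weighted on its own. CORI3, a coronatine-induced aminotransferase gene, had 661 and 412 TPM in the mock 6 h libraries, against 0.61 and 4.98 TPM in the T0 libraries (log2 fold change 7.40 ± 0.52, adjusted p = 1.43e-08). VSP1 and VSP2, near-identical vegetative storage protein genes, had 1039.8 and 668 TPM and 1081 and 699 TPM at 6 h, against 0.15 and 6.63 TPM and 2.92 and 99.2 TPM at T0. CLH1, a chlorophyllase gene, had 685 and 491 TPM at 6 h, against 57.4 and 101 TPM at T0 (log2 fold change 2.92). PDF1.2, a defensin gene of the ethylene-linked branch, had 12.1 and 0 TPM at 6 h, against 1.62 and 0.28 TPM at T0, and its activator gene ORA59 had 13 and 1.58 TPM at 6 h, against 0 and 0.48 TPM at T0. The mock 6 h libraries disagreed in these genes, as in NAC019 (12.8 and 1.65 TPM). MYC2, the master regulator, had 62 and 47.5 TPM at 6 h, against 21.1 and 99.7 TPM at T0 and was not called (log2 fold change 0.23 ± 0.75, adjusted p = 0.856), and its sign turned under TMM and quantile scaling.

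MYC factors are known to bind the G-box, CACGTG. Promoter windows of 300 bases, from 250 before to 50 after the annotated start, were read from the TAIR10.1 genome for 20568 tested nuclear genes and searched on both strands. Of the 17 separated members of the jasmonate lists 2 held a G-box and 4 held CACATG, a weaker MYC site. The 250 bases before the start of both G-box genes are printed in the direction of the gene with each G-box in capitals. They show where these letters stand in a JAZ repressor gene (chr3:6119457-6119706, plus strand) and in a synthesis gene (chr5:17099596-17099845, minus strand).
JAZ3: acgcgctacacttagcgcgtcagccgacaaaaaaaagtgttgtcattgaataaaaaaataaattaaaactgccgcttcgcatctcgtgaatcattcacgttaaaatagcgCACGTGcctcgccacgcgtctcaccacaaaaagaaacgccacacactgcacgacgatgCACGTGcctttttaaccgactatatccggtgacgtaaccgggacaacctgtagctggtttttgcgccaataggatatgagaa
AOS: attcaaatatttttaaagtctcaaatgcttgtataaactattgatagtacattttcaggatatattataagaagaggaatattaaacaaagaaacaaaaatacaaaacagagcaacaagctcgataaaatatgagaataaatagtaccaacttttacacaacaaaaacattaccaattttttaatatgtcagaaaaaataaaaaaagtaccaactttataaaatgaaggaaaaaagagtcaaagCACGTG
In JAZ3 the matches begin at positions -140 and -82 and in AOS at -6, counted back from the annotated start. A G-box was found in 10.3% of the promoters of all separated higher genes, 10.1% of those of all separated lower genes and 8.5% of all windows, and CACATG in 16%, 19.1% and 12.8%. Other motifs differed more. TATCCA, known from sugar-regulated amylase promoters, was in 13.8% of separated higher, 30.3% of separated lower and 16.5% of all windows. TGGGCC, a site of housekeeping promoters, was in 8.62%, 4.69% and 18.5%, and AAACCCTA, the telo box of ribosomal protein genes, in 3.57%, 0.722% and 5.46%. The evening element AAAATATCT was in 4.68%, 0.722% and 2.96%, and the related clock site AAAAATCT in 6.9%, 4.33% and 7.81%. The W-box TTGACC was in 16.5%, 15.9% and 14.3%, the GCC box GCCGCC in 1.48%, 2.17% and 2.77%, and the dehydration elements ACCGAC and GCCGAC in 8.99%, 5.42% and 6.26% and in 5.42%, 4.33% and 3.7%. None of these motifs contains another, and a match is a description, not a binding site.

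Rapid wound and stress transcription factor genes went both ways, and most of those that fell are genes known to react within minutes. Of 25 tested, 6 were called higher and 8 lower, beside 26.5% and 6.22% of all tested genes. Separated were 5 and 7. ERF105 (AT5G51190) was listed at 0 in both mock 6 h libraries and had 60.8 and 97.1 TPM in the T0 libraries (adjusted p = 8.3e-06). ERF6, an ethylene response factor gene, had 1.99 and 0.95 TPM at 6 h, against 12.8 and 122 TPM at T0, and SZF1, a zinc finger gene, had 22 and 12.8 TPM, against 102 and 255 TPM. WRKY33 had 16.1 and 10.9 TPM at 6 h, against 59.3 and 228 TPM at T0, and ERF104 had 20.2 and 5.11 TPM, against 50.5 and 97.9 TPM. T0 replicate 2 was more than 2-fold above replicate 1 in 13 of the 25 genes, and only 2 of the lower calls held with T0 weighted on its own. The factors that rose had been near 0 at T0. RAP2.6 had 22 and 22.4 TPM at 6 h and was listed at 0 in both T0 libraries (adjusted p = 2.05e-09). MYB15, which promotes lignin and defence genes, had 18.5 and 14.9 TPM at 6 h, against 0.04 and 0.53 TPM at T0 (log2 fold change 3.80 ± 0.22), and ERF115 (AT5G07310), known from regeneration after stem cell death, had 5.1 and 4.47 TPM, against 0 and 0.05 TPM. RRTF1, also named ERF109 and known as an early wound factor, had 1.54 and 0.4 TPM at 6 h, against 0.04 and 2.01 TPM at T0 (log2 fold change 0.09 ± 0.57, adjusted p = 0.936), and its sign turned with a pseudocount of 5 and under quantile scaling.

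**Figure D3:**
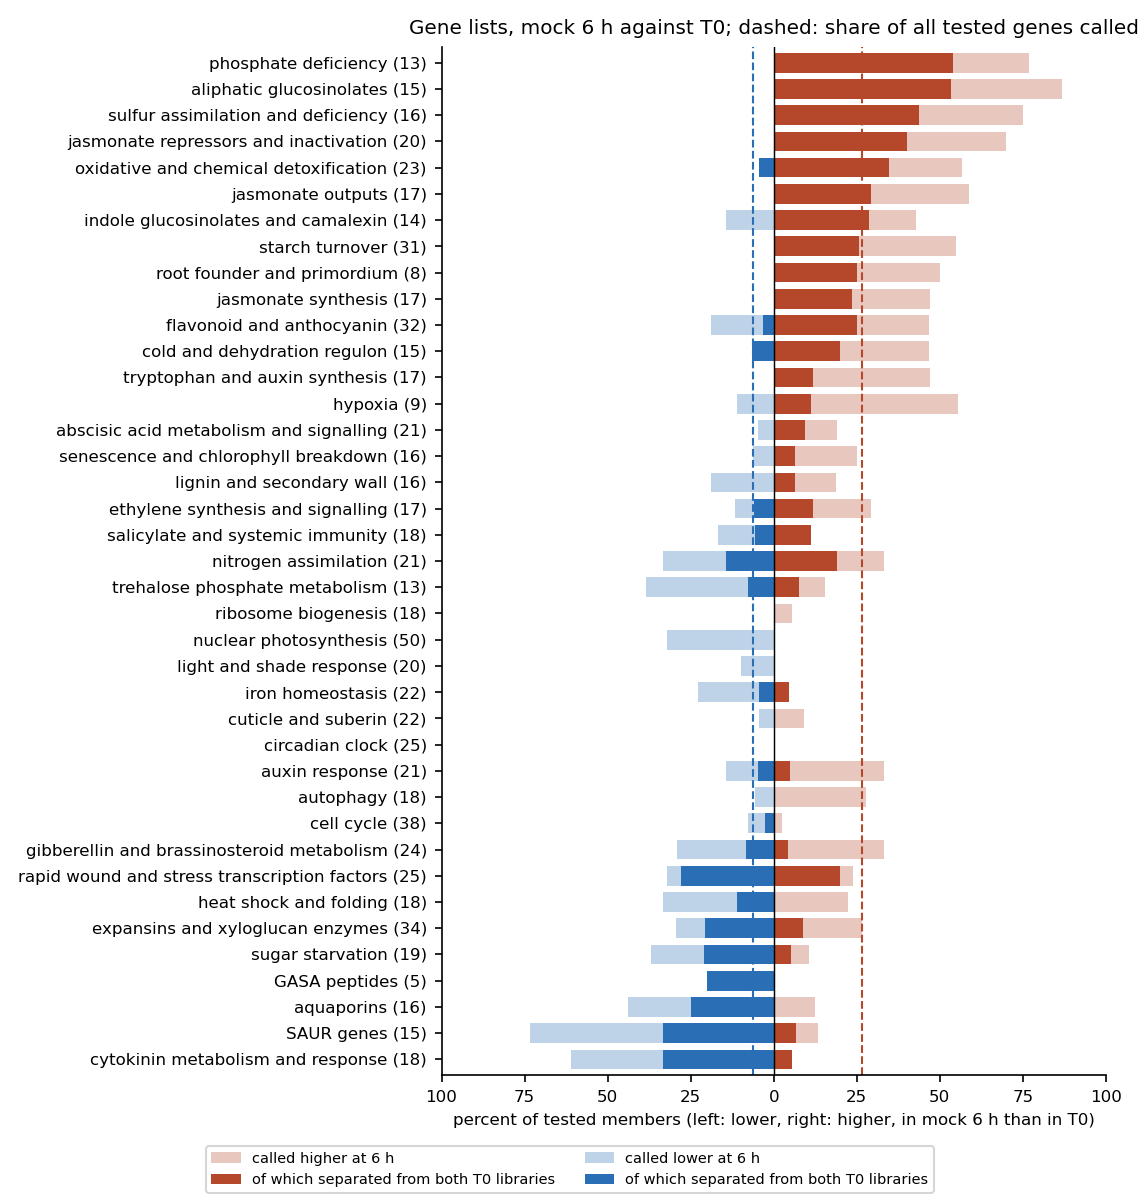
Share of the tested members of each of 39 gene lists called higher (right) or lower (left) in mock 6 h than in T0, in pale bars, with the separated members in dark bars and the number tested in brackets. Dashed lines mark the 26.5% and 6.22% of all tested genes called. Phosphate deficiency (7 of 13 separated higher), glucosinolate and sulfur lists stand at the top, and cytokinin (6 of 18 separated lower) and SAUR genes at the bottom.

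Many starch genes rose, among them genes that sugar induces, and several genes that sugar represses fell. Of 31 tested starch genes 17 were called higher and 0 lower, beside 26.5% and 6.22% of all tested genes. Among the starch genes 8 were separated, and 11 were called with T0 weighted on its own. BAM5, a beta-amylase gene of the phloem induced by sugar, had 309 and 325 TPM in the mock 6 h libraries, against 0.21 and 0.34 TPM in the T0 libraries. GPT2, which moves glucose phosphate into plastids, had 252 and 272 TPM at 6 h, against 0.14 and 0.24 TPM at T0 (log2 fold change 7.79 ± 0.57, adjusted p = 2.49e-08). APL3, a sugar-induced large subunit of the first starch enzyme, had 344 and 353 TPM at 6 h, against 9.06 and 11.7 TPM at T0 (log2 fold change 4.95 ± 0.34). The leaf form APL1 was not called, with 257 and 307 TPM at 6 h, against 277 and 244 TPM at T0. Starch breakdown genes also rose, but over a wide T0 range: ISA3, a debranching enzyme gene, had 501 and 182 TPM at 6 h, against 2.43 and 67 TPM at T0, and SEX4, a glucan phosphatase gene, had 434 and 282 TPM, against 5.57 and 97.9 TPM. CT-BMY, the chloroplast beta-amylase gene, had 1162 and 1758 TPM at 6 h, against 549 and 158 TPM at T0 (log2 fold change 2.27 ± 0.48). In 16 of the 31 genes the T0 libraries differed more than 2-fold.

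Of 19 tested sugar starvation genes 2 were called higher and 7 lower, beside 26.5% and 6.22% of all tested genes. Separated were 1 and 4, and 1 in each direction was called with T0 weighted on its own. TPS9 and TPS11, trehalose phosphate synthase family genes induced by starvation, had 1.78 and 1.83 TPM and 1.38 and 1.57 TPM in the mock 6 h libraries, against 10.6 and 19.9 TPM and 8.92 and 13.2 TPM in the T0 libraries. The starvation-induced factor gene bZIP1 had 4.65 and 3.22 TPM at 6 h, against 16 and 25.7 TPM at T0 (log2 fold change -2.13 ± 0.43). ASN1, the dark-induced asparagine synthetase gene, had 0.21 and 0.13 TPM at 6 h, against 3.67 and 5.37 TPM at T0 (adjusted p = 0.0386). One member of the list rose strongly: GBF6, a bZIP factor whose translation sucrose represses, had 149 and 170 TPM at 6 h, against 10.1 and 10.4 TPM at T0 (log2 fold change 3.83 ± 0.24, adjusted p = 2.78e-09). In the trehalose phosphate list 2 of 13 genes were called higher and 5 lower, with 1 separated each way. TPS5 had 129 and 90.2 TPM at 6 h, against 23.3 and 14.9 TPM at T0, and the phosphatase gene TPPH had 1.94 and 2.06 TPM, against 17.8 and 8.98 TPM.

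The anthocyanin branch of the flavonoid pathway rose. Of 32 tested flavonoid genes 15 were called higher and 6 lower, beside 26.5% and 6.22% of all tested genes. Separated were 8 and 1, and 5 higher calls held with T0 weighted on its own. The activator PAP1 had 239 and 423 TPM in the mock 6 h libraries, against 0.49 and 0.33 TPM in the T0 libraries (log2 fold change 7.83 ± 0.61, adjusted p = 5.28e-08), and its paralogue MYB90 had 78.2 and 122 TPM, against 0.06 and 0 TPM. LDOX, a late enzyme of anthocyanin synthesis, had 47.1 and 220 TPM at 6 h, against 0.13 and 0.24 TPM at T0 (log2 fold change 6.44 ± 0.98), and the glycosyltransferase gene UF3GT had 32.2 and 97.2 TPM, against 0.03 and 0.17 TPM. Mock 6 h replicate 2 was above replicate 1 in all 4 genes. TT4, the chalcone synthase gene of the entry step, was called but not separated, with 606 and 1670.1 TPM at 6 h, against 409 and 7.29 TPM at T0. PAL3 and PAL4, of the entry step of phenylpropanoids, were called lower, and so were the repressor genes LBD37, LBD38 and LBD39, of which LBD37 was separated with 30.1 and 34.7 TPM at 6 h, against 80.3 and 71 TPM at T0. LBD37 to LBD39 are known to respond to nitrate and to repress anthocyanin genes.

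Genes known from mineral deficiency rose for phosphate and sulfur and went both ways for nitrogen. Of 13 tested phosphate deficiency genes 10 were called higher and 0 lower, beside 26.5% and 6.22% of all tested genes. Among the phosphate genes 7 were separated, and 7 were called with T0 weighted on its own. PHT1;4, a phosphate importer gene, had 20.8 and 16.9 TPM in the mock 6 h libraries, against 0.19 and 0.18 TPM in the T0 libraries (log2 fold change 4.06 ± 0.18, adjusted p = 3.29e-11). SPX1, a phosphate sensor gene, had 52.6 and 62.6 TPM at 6 h, against 11.5 and 2 TPM at T0, and PAP17, an acid phosphatase gene, had 53.9 and 78.7 TPM, against 21.6 and 2.21 TPM. MGD2 and MGDC, which make the galactolipids that replace phospholipids, had 8.89 and 20.4 TPM and 5.34 and 6.05 TPM at 6 h, against 1.13 and 1.58 TPM and 0.27 and 0.36 TPM at T0. The sulfolipid gene SQD1 had 196 and 341 TPM at 6 h, against 51.4 and 55.8 TPM at T0. PHO1, SPX3 and SPX4 were not called.

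Of 16 tested sulfur genes 12 were called higher and 0 lower, beside 26.5% and 6.22% of all tested genes. Among the sulfur genes 7 were separated, and 8 were called with T0 weighted on its own. SULTR1;2, a sulfate importer gene best known from roots, had 23.2 and 25.3 TPM in the mock 6 h libraries, against 0.09 and 0.21 TPM in the T0 libraries (log2 fold change 4.46 ± 0.34, adjusted p = 4.08e-08). APR1, of sulfate reduction, had 369 and 284 TPM at 6 h, against 85.3 and 48.9 TPM at T0, and APR3 had 332 and 284 TPM, against 73.1 and 57.9 TPM. The low-sulfur response genes LSU2 and LSU3 had 115 and 161 TPM and 13.2 and 12.9 TPM at 6 h, against 40.6 and 3.24 TPM and 2.63 and 0.26 TPM at T0. In the LSU genes T0 replicate 1 was the higher T0 library. SULTR2;1, a vascular transporter gene, was not called, with 63.9 and 51.6 TPM at 6 h, against 59.8 and 104 TPM at T0.

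In nitrogen assimilation 7 of 21 tested genes were called higher and 7 lower, beside 26.5% and 6.22% of all tested genes. Separated were 4 and 3, and 4 and 3 were called with T0 weighted on its own. NIA1, a nitrate reductase gene, had 4.88 and 10.9 TPM in the mock 6 h libraries, against 58.7 and 266 TPM in the T0 libraries (log2 fold change -3.92 ± 0.56, adjusted p = 4.94e-05). GLT1 and GDH1, of glutamate synthesis and breakdown, fell to 22.5 and 19.3 TPM and to 10.9 and 7.42 TPM, against 46.1 and 123 TPM and 23.4 and 35.2 TPM. GSR 1, a cytosolic glutamine synthetase gene, had 256 and 183 TPM at 6 h, against 2.12 and 12.3 TPM at T0 (log2 fold change 5.08 ± 0.45, adjusted p = 2.62e-07). NRT1.7, which loads nitrate into the phloem of old leaves, had 150 and 148 TPM at 6 h, against 33.7 and 17.1 TPM at T0. NRT2.6 had 5.14 and 7.99 TPM at 6 h, against 0.1 and 0.46 TPM at T0. In iron homeostasis 1 of 22 genes was called higher and 5 lower, with 1 separated each way: YSL1, a metal-nicotianamine carrier gene, with 17.4 and 18.9 TPM at 6 h, against 5.39 and 3.64 TPM at T0, and FRO6, a leaf ferric reductase gene, with 1.18 and 5.18 TPM, against 80 and 18.2 TPM. The T0 libraries differed more than 2-fold in 16 of those 22 genes, and 0 were called with T0 weighted on its own.

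Enzyme genes of aliphatic glucosinolates, the methionine-derived mustard oil precursors, rose through most of the pathway. Of 15 tested genes 13 were called higher and 0 lower, beside 26.5% and 6.22% of all tested genes. The list median was 1.67, and 8 were separated. Fewer held with T0 weighted on its own, namely 3. IMD1, of the side-chain elongation cycle, had 607 and 457 TPM in the mock 6 h libraries, against 65.1 and 121 TPM in the T0 libraries (log2 fold change 2.55 ± 0.35, adjusted p = 3.81e-05). BCAT4, the entry aminotransferase gene, had 300 and 178 TPM at 6 h, against 27.5 and 86.3 TPM at T0. CYP79F2, of core synthesis, had 21 and 13.8 TPM at 6 h, against 5.1 and 2.57 TPM at T0, and the neighbouring, similar CYP79F1 had 326 and 253 TPM, against 55.1 and 114 TPM. IMS2 had 14.8 and 2.56 TPM at 6 h, against 0 and 0.02 TPM at T0. Of the MYB regulators of the pathway, MYB76 was called higher but not separated, with 6.78 and 4.73 TPM at 6 h, against 1.36 and 3 TPM at T0 (log2 fold change 1.12), and leaving out T0 replicate 1 ended that call (adjusted p = 0.14). MYB28 and MYB29 were not called: MYB28 had 86.1 and 79.2 TPM at 6 h, against 73.7 and 78.8 TPM at T0, and MYB29 had 38.9 and 36 TPM, against 35.5 and 27.3 TPM. In the indole branch 6 of 14 genes were called higher and 2 lower, 4 were separated higher, and 0 were called with T0 weighted on its own. CYP79B2 and CYP79B3, which turn tryptophan into indole acetaldoxime, had 80.5 and 77.2 TPM and 99.3 and 74.9 TPM at 6 h, against 34.4 and 21.7 TPM and 32.2 and 31.6 TPM at T0. CYP81F4 had 43.4 and 19.1 TPM at 6 h, against 0 and 0.05 TPM at T0, and PAD3, of camalexin synthesis, had 2.66 and 3.68 TPM, against 0.11 and 0.18 TPM.

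Detoxification genes rose in part. Of 23 tested, 13 were called higher and 1 lower, beside 26.5% and 6.22% of all tested genes. Separated were 8 and 1, and 8 higher calls held with T0 weighted on its own. GSTF6 and GSTF7, adjacent and near-identical glutathione S-transferase genes, had 827 and 794 TPM and 156 and 130 TPM in the mock 6 h libraries, against 0.56 and 15.7 TPM and 0.26 and 7.41 TPM in the T0 libraries. GSTU24 and GSTU25, of the tau class, had 23.3 and 34.5 TPM and 15.1 and 20.8 TPM at 6 h, against 0.75 and 1.64 TPM and 0 and 0.37 TPM at T0 (log2 fold changes 3.77 ± 0.22 and 4.00 ± 0.30). GSTF8 went the other way, with 93.1 and 135 TPM at 6 h, against 314 and 518 TPM at T0 (log2 fold change -1.84).

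Cytokinin response genes fell. Of 18 tested cytokinin genes 1 was called higher and 11 lower, beside 26.5% and 6.22% of all tested genes. Separated were 1 and 6, and 1 and 6 were called with T0 weighted on its own. The type-A response regulator genes, which cytokinin induces and which feed back on its signal, made up most of them. ARR4 had 6.5 and 4.89 TPM in the mock 6 h libraries, against 52.4 and 49.2 TPM in the T0 libraries (log2 fold change -2.96 ± 0.21, adjusted p = 1.51e-08). ARR7 had 2.68 and 1.6 TPM at 6 h, against 24.8 and 18.3 TPM at T0 (log2 fold change -2.85 ± 0.37), and ARR9 had 2.17 and 3.31 TPM, against 46.4 and 12.5 TPM. RR5 and ARR6 had 0.17 and 0.06 TPM and 0.19 and 0.06 TPM at 6 h, against 3 and 6.96 TPM and 5.76 and 2.58 TPM at T0. LOG8, of cytokinin activation, was the gene that rose, to 59.6 and 75.9 TPM at 6 h, against 22.1 and 20.2 TPM at T0. The synthesis gene IPT3 was not called, with 8.2 and 6.34 TPM at 6 h, against 9.6 and 4.72 TPM at T0.

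Growth-related auxin, wall and aquaporin genes were called lower more often than the 6.22% of all tested genes. Their shares called higher were at or below the 26.5% of all tested genes. Of 15 tested SAUR genes, small auxin-induced growth genes, 2 were called higher and 11 lower, with 1 and 5 separated. With T0 weighted on its own 1 was called each way. The higher calls were SAUR36 and SAUR21, and the symbol SAUR21 was matched to AT5G01830, apart from the SAUR19 to SAUR24 loci. That locus may not belong to this family. SAUR26 had 1.17 and 1.45 TPM in the mock 6 h libraries, against 12.3 and 5.95 TPM in the T0 libraries, and SAUR29 had 1.01 and 2.59 TPM, against 11.9 and 7.91 TPM. The near-identical SAUR19 and SAUR23 had 0 and 0.34 TPM and 0.48 and 1.23 TPM at 6 h, against 8.04 and 1.76 TPM and 13.1 and 6.05 TPM at T0. T0 replicate 1 was more than 2-fold above replicate 2 in 10 of the 15. Of 34 expansin and xyloglucan enzyme genes 9 were called higher and 10 lower, with 3 and 7 separated. With T0 weighted on its own 1 was called higher and 4 lower. XTH4 had 73.2 and 68.9 TPM at 6 h, against 651 and 580 TPM at T0 (log2 fold change -3.09 ± 0.33, adjusted p = 2.37e-06), and EXPA1 had 27.7 and 44.9 TPM, against 413 and 230 TPM. XTH17 had 2.68 and 1.22 TPM at 6 h, against 39.3 and 13 TPM at T0. The expansin gene EXPA4 rose, with 121 and 135 TPM at 6 h, against 31.8 and 33 TPM at T0. Of 16 aquaporin genes 2 were called higher and 7 lower, and 4 were separated lower. Under the T0 weight 0 of them were called higher and 4 lower. DELTA-TIP, of the vacuole membrane, had 135 and 181 TPM at 6 h, against 1431 and 713 TPM at T0 (log2 fold change -2.68 ± 0.41), and TIP2 had 304 and 238 TPM, against 1199 and 705 TPM. PIP1C and PIP2E, of the plasma membrane, had 103 and 125 TPM and 146 and 100 TPM at 6 h, against 425 and 269 TPM and 389 and 332 TPM at T0. In the GASA list GASA6 was the sole gene called of 5 tested.

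Other hormone lists went both ways, with shares called higher near or below the 26.5% of all tested genes. Of all tested genes 6.22% were called lower. In auxin response 7 of 21 genes were called higher and 3 lower, with IAA5 separated higher (10.8 and 10.3 TPM at 6 h, against 4.06 and 1.45 TPM at T0) and IAA14, a repressor of lateral root initiation, separated lower (0.76 and 4.81 TPM, against 89.3 and 19.9 TPM). In gibberellin and brassinosteroid metabolism and response 8 of 24 were called higher and 7 lower, with 1 and 2 separated. The gibberellin receptor gene GID1B had 7.91 and 10.9 TPM at 6 h, against 1.76 and 0.79 TPM at T0, and the brassinosteroid-induced BEE1 had 1.07 and 1.87 TPM, against 10.9 and 7.25 TPM. Of 21 abscisic acid genes 4 were called higher and 1 lower, with 2 separated higher. BGLU18, which frees abscisic acid from its glucose ester, had 1514 and 690 TPM at 6 h, against 14.2 and 79.7 TPM at T0 (log2 fold change 4.87 ± 0.79), and CYP707A1, which breaks the hormone down, had 9.73 and 12.3 TPM, against 1.09 and 2.43 TPM. Of 17 ethylene genes 5 were called higher and 2 lower, with 2 and 1 separated, all 3 of them genes of ACC synthase. ACS2 and ACS8 had 2.36 and 2.48 TPM and 1.46 and 1.78 TPM at 6 h, against 0.02 and 0 TPM and 0 and 0.03 TPM at T0, while ACS6 had 20.9 and 9.12 TPM, against 96.6 and 86 TPM. Of 18 salicylate and systemic immunity genes 2 were called higher and 3 lower, with 2 and 1 separated. PR5 had 101 and 52.6 TPM at 6 h, against 7.45 and 11 TPM at T0. EDS5, a salicylate pathway transporter gene, had 8.83 and 6.7 TPM, against 0.58 and 1.55 TPM. WRKY70 had 5.8 and 4.35 TPM, against 29.8 and 311 TPM. With T0 weighted on its own the calls of IAA5, BEE1, BGLU18, ACS6 and WRKY70 were lost (adjusted p = 0.0842, 0.171, 0.0504, 0.125 and 0.0743). Those of IAA14, GID1B, CYP707A1, ACS2, ACS8, PR5 and EDS5 held.

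**Figure D4:**
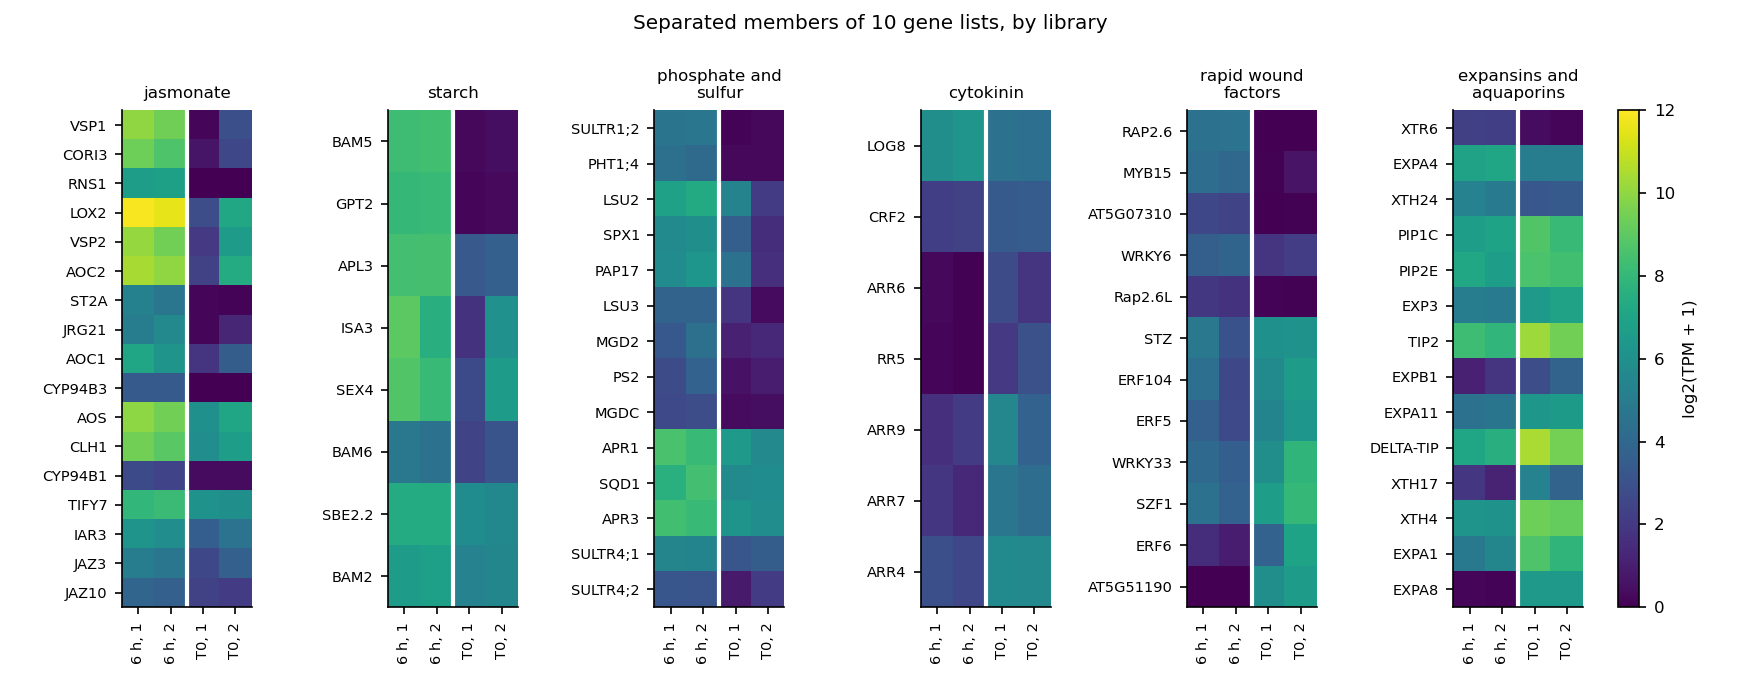
Level of the separated members of 10 gene lists in the mock 6 h libraries (left columns) and T0 libraries (right columns), as colour on the log2(TPM + 1) scale, sorted by fold change within each panel. The jasmonate, starch, phosphate and sulfur panels hold higher genes, such as LOX2 with 3757 and 2978 TPM at 6 h, and all but 1 of the cytokinin genes were lower.

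Some root founder and cambium genes were higher, at low levels. Among all tested genes 26.5% were called higher and 6.22% lower. Of 8 tested root founder genes 4 were called higher and 0 lower, with 2 separated, of which LBD16 was called with T0 weighted on its own (adjusted p = 0.0101). LBD16, which acts in lateral root founder cells, had 2.5 and 4.51 TPM in the mock 6 h libraries, against 0.04 TPM in each T0 library (log2 fold change 2.08 ± 0.22, adjusted p = 2.6e-06). GATA23, of the same process, had 2.36 and 2.63 TPM at 6 h, against 0 and 0.11 TPM at T0 (log2 fold change 1.73 ± 0.27). WOX11 had 0.36 and 0.61 TPM at 6 h and was listed at 0 in both T0 libraries (adjusted p = 0.037), a call that ended when T0 replicate 1 or T0 replicate 2 was left out (adjusted p = 0.101 and 0.0742) and with T0 weighted on its own (adjusted p = 0.499). All 5 cambium markers were called higher, 2 of them separated and 0 called with T0 weighted on its own: WOX4 had 9.88 and 8.82 TPM at 6 h, against 2.51 and 3.28 TPM at T0, and SMXL5 (AT5G57130) had 16.7 and 16.1 TPM, against 3.67 and 7.04 TPM. In tryptophan and auxin synthesis 8 of 17 genes were called higher and 0 lower, with 2 separated. ASB1, a subunit of anthranilate synthase, had 91.2 and 86.6 TPM at 6 h, against 21.3 and 33.1 TPM at T0 (log2 fold change 1.71 ± 0.19), and the nitrilase gene NIT3 had 4.99 and 9.23 TPM, against 1.28 and 1.97 TPM. ASA1, the partner subunit, had 51.7 and 29.9 TPM at 6 h, against 17.6 and 34.8 TPM at T0, and was not called (adjusted p = 0.0764). Of 38 tested cell division genes 1 was called higher, below the share of all genes, and 3 lower, near the share of all genes. Their lower calls numbered 12 under TMM and 14 under quantile normalization, where 2442 and 2697 of all 20654 tested genes were called lower. The mitotic cyclin gene CYCB1;1 had 1.29 and 1.39 TPM at 6 h, against 0.73 and 1.97 TPM at T0. TSO2, of nucleotide supply, was separated lower, with 28 and 25.1 TPM at 6 h, against 72.6 and 82.2 TPM at T0. Of 18 ribosome biogenesis genes 1 was called, FIB2, with 82.8 and 46.8 TPM at 6 h, against 27.1 and 25 TPM at T0, a call that ended when T0 replicate 1 or T0 replicate 2 was left out (adjusted p = 0.0883 and 0.0901), under both scalings and with T0 weighted on its own.

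Photosynthesis genes had lower shares at 6 h, by small factors and with none separated. Of 50 tested nuclear photosynthesis genes 0 were called higher and 16 lower, beside 26.5% and 6.22% of all tested genes. The list median was -0.76. Lower calls numbered 23 under TMM, 6 under quantile normalization and 0 with T0 weighted on its own. Their summed level was 134227 and 128899.7 TPM in the mock 6 h libraries, against 254295 and 194445 TPM in the T0 libraries. In bulk tissue fewer cells of a type and less RNA per cell cannot be told apart. PSBP-1, of the oxygen-evolving complex, had 2962 and 2544 TPM at 6 h, against 4945 and 5409 TPM at T0 (log2 fold change -0.91 ± 0.18, adjusted p = 0.000875), and LHCB5, an antenna protein gene, had 2147 and 1378 TPM, against 5326 and 3999 TPM. RBCS1A, of the Rubisco small subunit, had 16875 and 20108 TPM at 6 h, against 27197 and 24776 TPM at T0 (log2 fold change -0.49 ± 0.16). PSBR had 6062 and 5955 TPM at 6 h, against 11192 and 7866 TPM at T0, but its sign turned under quantile normalization (0.09). CA2, a carbonic anhydrase gene outside this list, was separated lower, with 552 and 1323 TPM at 6 h, against 3329 and 3346 TPM at T0. Among 8 mesophyll markers 2 were called lower, with 4 under TMM, 0 under quantile normalization and 0 with T0 weighted on its own. Their summed level was 46833 and 45287 TPM at 6 h, against 88185 and 73326 TPM at T0.

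Markers of other cell types went in both directions, beside 26.5% of all tested genes called higher and 6.22% lower. Of 6 epidermis markers 2 were called lower and their sums were 382 and 447 TPM in the mock 6 h libraries, against 495 and 465 TPM in the T0 libraries. Among 7 guard cell markers 3 were called higher, with 1 separated, and the sums were 3886 and 5086 TPM at 6 h, against 3422 and 4767 TPM at T0. The called markers KAT1, OZS1 and HT1 had 26 and 19.6, 8.38 and 7.55, and 5.7 and 5.13 TPM at 6 h. These sums thus rest mostly on markers that were not called. Companion cell and phloem markers had 1 of 8 called each way, and 0 higher and 2 lower under TMM and quantile scaling, with sums of 298 and 227 TPM at 6 h, against 327 and 315 TPM at T0. Xylem markers had 0 of 6 called and sums of 141 and 147 TPM at 6 h, against 144 and 158 TPM at T0. Trichome markers had 1 of 4 called higher, a share near that of all genes, and the call was lost under both scalings. Their sums were 10.3 and 15.2 TPM at 6 h, against 24.4 and 7.98 TPM at T0. Cambium marker sums were 76.6 and 74.2 TPM at 6 h, against 25 and 42.5 TPM at T0. Of 9 root markers 4 were tested and 1 was called higher, again near the share of all genes. It was PYK10, a glucosidase gene, with 581 and 328 TPM at 6 h, against 106 and 248 TPM at T0. RHD6, RSL4, SHV2 and MYB36 were listed at 0 in all 4 libraries. The part of a changed cell makeup in the gene groups above was not tested.

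Light, ageing and stress lists completed the comparison, beside 26.5% of all tested genes called higher and 6.22% lower. Of 20 light and shade genes 0 were called higher and 2 lower, and 13 differed more than 2-fold between the T0 libraries. Of 16 senescence and chlorophyll breakdown genes 4 were called higher and 1 lower, and PPH, which dephytylates pheophytin, was separated with 57.5 and 54.4 TPM in the mock 6 h libraries, against 17.8 and 22.6 TPM in the T0 libraries. SAG21 was called lower, with 50.8 and 29.9 TPM at 6 h, against 96.5 and 289 TPM at T0. Of 18 autophagy genes 5 were called higher, a share near that of all genes, and 1 lower, none was separated, and under TMM and under quantile scaling 0 were called higher and 4 lower. Of 15 cold and dehydration genes 7 were called higher and 1 lower, with 3 and 1 separated, but T0 replicate 2 was more than 2-fold above replicate 1 in 12 of them. COR15A, of a chloroplast-protecting protein, had 1520.5 and 1936 TPM at 6 h, against 18.2 and 346 TPM at T0, and KIN1 had 62.2 and 77.3 TPM, against 0.44 and 4.95 TPM. The regulator gene CBF2 went the other way, with 0.73 and 0 TPM at 6 h, against 8.31 and 4.61 TPM at T0. Of 9 hypoxia genes 5 were called higher and 1 lower, with PDC2, a pyruvate decarboxylase gene, separated at 127 and 89.2 TPM at 6 h, against 3.72 and 18.9 TPM at T0. Of 18 heat shock and folding genes 4 were called higher and 6 lower, and the repressor HSFB2A was separated lower, with 2.58 and 3.24 TPM at 6 h, against 28.6 and 15 TPM at T0. In lignin and secondary wall 3 of 16 genes were called each way, and CAD5, of the last step to lignin alcohols, was separated higher, with 203 and 228 TPM at 6 h, against 44.1 and 23.1 TPM at T0. Of 22 cuticle and suberin genes 2 were called higher and 1 lower, and none was separated. With T0 weighted on its own the calls of CBF2, PDC2 and HSFB2A were lost (adjusted p = 0.201, 0.0761 and 0.0842). Those of PPH, SAG21, COR15A, KIN1 and CAD5 held.

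Later mock libraries show the course of the separated genes after 6 h. The rule chose these genes by their gap at 6 h, which favours 6 h as the farthest time and smaller differences later. The counts below were not made over all tested genes. In 344 of the 812 separated higher genes and 159 of the 279 separated lower genes the mock mean lay farthest from T0 at 6 h among the 7 mock times. By 5 d the difference from T0 was less than 50% of that at 6 h in 21.4% of the higher and 40.5% of the lower genes, and it was at least as large as at 6 h in 335 higher and 71 lower genes. The jasmonate group divided. CYP94B3 had 2.01 and 0.91 TPM at 12 h and 0.07 and 0.25 TPM at 5 d, and RAP2.6 had 7.72 and 3.18 TPM at 12 h and 0.04 and 0 TPM at 5 d. VSP1 stood at 399 and 394 TPM at 12 h and at 3.64 and 6.93 TPM at 5 d, while LOX2 still had 1705 and 1773 TPM and CORI3 708 and 567 TPM at 5 d. PHT1;4 and SULTR1;2 stayed up, with 35.9 and 36.1 TPM and 52.2 and 38.7 TPM at 5 d. Among the lower genes ARR4 had 19.7 and 29.6 TPM and GASA6 17.6 and 28.4 TPM at 5 d. Blades on medium with NPA, an inhibitor of auxin transport, were also sampled at 6 h: CYP94B3 had 65 and 38.9 TPM, RAP2.6 133 and 113 TPM, and ARR4 39.5 and 32.2 TPM in them. LBD16 had 0.13 and 0.52 TPM in the NPA 6 h libraries.

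**Figure D5:**
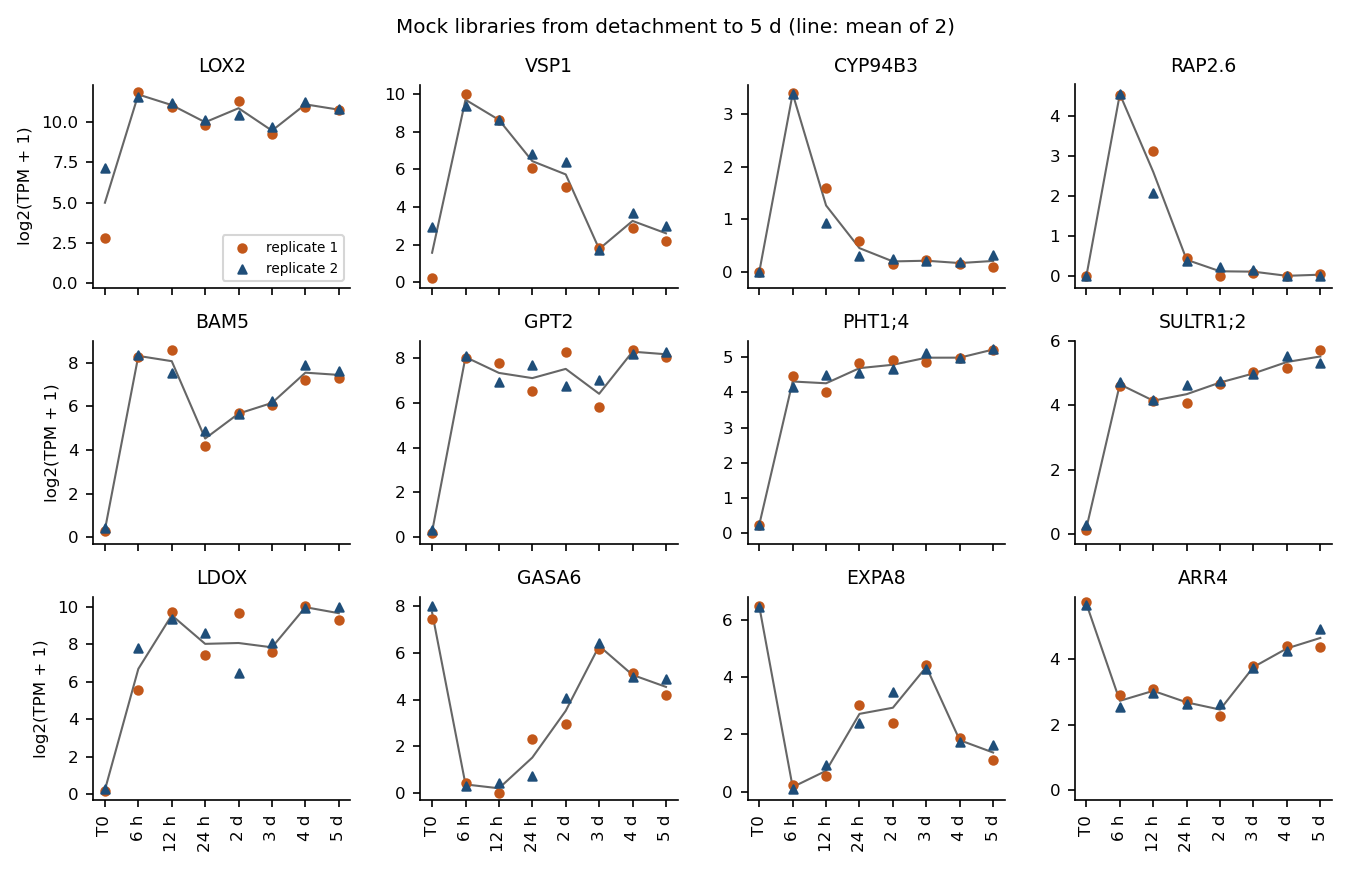
Level of 12 separated genes in the mock libraries at T0, 6 h, 12 h, 24 h and 2 d to 5 d on the log2(TPM + 1) scale, with circles for replicate 1, triangles for replicate 2 and a line through the means; the time axis is in steps, not to scale. CYP94B3 and RAP2.6 peak at 6 h and return to near 0, LOX2, PHT1;4 and SULTR1;2 stay high, and GASA6, EXPA8 and ARR4 are low at 6 h.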

How the data were processed

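RNA-seq values of 30 libraries, 2 for each of 15 groups, were used. Per the submitters' processing notes, reads were trimmed with Trim Galore 0.5.0, aligned with STAR 2.7.2b to TAIR10 and quantified with RSEM 1.3.2, and the authors deposited TPM values, with no read totals, so no counting intervals are given. Both deposited tables hold the same T0 columns. Of 37686 genes, 20654 with at least 1 TPM in at least 2 libraries were tested. All adjusted p-values come from limma 3.58.1 (R 4.3.3) on log2(TPM + 1), with a mean per group over all 30 libraries, a trended prior and Benjamini-Hochberg adjustment over the 20654 genes, at a threshold of 0.05. Summaries used Python 3.11.15 and pandas 2.3.3. The fit was tested on simulated data with 200 of 20654 genes changed. With the pooled spread in all groups it gave 12 false calls and 0 false separated genes. With T0 given the wider spread of its own pair it gave 591 false calls and 109 false separated genes.

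A gene was separated when it was called, stayed called in the same direction without each T0 library, and had a gap of at least 1. Among genes with a symbol, the text draws on the 15 separated genes with the highest and the 15 with the lowest fold change, at a mean of at least 10 TPM in the higher group, and on the 10 called genes with the largest gain and the 10 with the largest loss of TPM. It also names up to 4 separated genes per list and a few fixed genes; further list members and clock genes were chosen after their values were seen. The members and lists were chosen with earlier results of these data known. Gene names came from RefSeq's TAIR10.1 annotation, which matched 37390 IDs, and 27 list entries without a unique match were left out. Promoters were read from the TAIR10.1 sequence. Counting by strand is not given in the sources used here, so antisense overlaps cannot be told apart. The alternatives were other pseudocounts, filters, scalings and weights, a replicate block, and leaving out each library.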

Additional observations from a re-analysis of the deposited data

How the results depend on the processing

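Called higher and lower were 3203 and 2442 genes with TMM factors, 2731 and 2697 with quantile normalization, 102 and 11 in a limma fit to the 4 libraries alone, 1068 and 178 with a weight of its own for T0, and 453 and 103 with a minimum log2 fold change of 1. Separated higher and lower were 467 and 148 genes with a pseudocount of 5, 652 and 182 with a mean of at least 5 TPM, 152 and 5 with T0 weighted, 277 and 44 with a minimum log2 fold change of 1, 2795 and 613 with no minimum gap, and 267 and 73 with a gap of 2. The limma fit to the 4 libraries separated 0 and 0 genes, against 812 and 279 in the fit to 30. Leaving out a T0 library from so few left little to estimate the spread, so these 0 counts say little about the genes. In the limma fit to 30, 8857 genes had an unadjusted p under 0.05. Leaving out 1 library in turn gave 3330 to 7613 genes called higher, 794 to 1942 lower, 926 to 2540 separated higher and 292 to 933 separated lower. Without T0 replicate 1 and without T0 replicate 2, 4021 and 7613 genes were called higher, and only the remaining T0 library bounded the separated genes.

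The labels do not say whether the replicate numbers pair the samples. The replicate 1 deviations of mock 6 h and T0 correlated at -0.296, which cannot settle this, because the T0 pair differed strongly in clock genes. With a replicate block 5342 genes were called higher and 1245 lower, with 802 and 269 separated. The crossed block, added after seeing the data, gave 5337 and 1247, with 807 and 276 separated.

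Of 173 named genes 164 kept their sign in every setting. Under quantile normalization the log2 fold change was 0.09 for PSBR, -0.10 for RRTF1, -0.00 for IAA19, -0.05 for MYC2 and -0.20 for CYCB1;1. With TMM factors it was -0.02 for MYC2 and -0.08 for CYCB1;1, and with a pseudocount of 5 it was -0.00 for RRTF1. Leaving out 1 library in turn gave -0.67 to 0.86 for RRTF1, -0.12 to 0.69 for IAA19, -7.49 to 0.66 for CCA1, -6.77 to 1.81 for LHY, -1.12 to 3.60 for TOC1, -0.37 to 6.05 for ELF4, -0.87 to 1.32 for MYC2 and -0.34 to 0.44 for CYCB1;1. The cause was not tested.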
